A study of Mus musculus with 12 samples.

Results

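The 30 genes described here encode enzymes of the tricarboxylic acid (TCA) cycle, of anaplerosis and of the redox shuttles, measured in mouse interscapular brown fat by RNA sequencing. They were chosen as a named list of enzymes, matched by gene symbol, from 38924 genes in the deposited count table, of which 27204 had counts. All 30 were present with counts, and 29 passed the filter on low counts; Ogdhl did not. The animals were wild-type C57BL/6J mice that were kept at 30, 22 or 6 °C from 10 to 14 weeks of age, 4 per temperature, and each gave 1 library. For a mouse, 30 °C is thermoneutral, 22 °C is a usual room temperature and a mild cold load, and 6 °C is a strong cold load. No drug, transgene or deletion was used as a treatment, and by the labels the groups differ in ambient temperature alone. Sex is not given in the sources used here. The labels describe the strain as C57BL/6J, which is known to carry a deletion of coding exons in Nnt; all 3 groups share it.

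The TCA cycle oxidises acetyl units in the mitochondrion and hands the electrons to the respiratory chain, which brown adipocytes run uncoupled through UCP1 to make heat. Anaplerotic enzymes refill the cycle, chiefly pyruvate carboxylase and the enzymes that feed in carbon from glutamate, while phosphoenolpyruvate carboxykinases draw oxaloacetate out of it. The malate-aspartate shuttle (cytosolic and mitochondrial malate dehydrogenases and aspartate transaminases) and the glycerol phosphate shuttle carry the electrons of cytosolic NADH into the mitochondrion. Brown fat is known for a strong glycerol phosphate shuttle and for large amounts of cycle enzymes per gram of tissue.

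The libraries held 18290162 to 32513051 counts, and that of 22 °C mouse 3 held 86438386; its code, 8846, is also outside the run of codes of the remaining 11, 7509 to 7520. Within that run the codes went largely by temperature. They were 7517 to 7520 at 30 °C, 7510, 7511 and 7513 at 22 °C, and 7509 and 7514 to 7516 at 6 °C. Whether they mark an order of handling is not known, and such an order could not be fully told apart from temperature. The number in the column name matched no title for 2 of the 30 °C libraries, whose group rests on the letter of the name; they are referred to as mouse A and mouse B. Brown adipocyte markers were detected in every library, and none of the 12 markers was at 0 in all. Their summed level was 3660 to 5340 CPM (counts scaled to a common library size) at 30 °C. It was 6070 to 9080 at 22 °C and 14400 to 17000 at 6 °C. The sum does not stand for each marker: 7 of the 12 were called higher and 1 lower at 6 °C against 30 °C (edgeR test described below). Other cell types were present too. Summed skeletal muscle markers (16 genes) spanned 1110 to 5890 CPM at 30 °C, 1120 to 4250 at 22 °C and 104 to 2200 at 6 °C, and summed macrophage markers (12 genes) spanned 525 to 1700, 140 to 202 and 237 to 478 CPM. Fibroblast and preadipocyte markers (8 genes) were at 2240 to 4170, 888 to 1320 and 690 to 846 CPM, and no marker of these lists was at 0 in every library. In bulk tissue, fewer cells of a type and less RNA per cell cannot be told apart. The part of these cell types in the results below was examined only by adding the muscle or the macrophage level to the model, as given further on.

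Genes were tested with edgeR's quasi-likelihood test over all 12 libraries, with p-values adjusted by Benjamini-Hochberg over 14870 genes, and a gene is said to rise or fall where the adjusted p was under 0.05. Changes are log2 fold changes with their standard error (SE). At 6 °C against 30 °C, 17 of the 29 tested enzyme genes rose and 7 fell, where 25.3% of all tested genes rose and 31.5% fell. At 22 °C against 30 °C, 17 rose and 6 fell, against 21.8% and 22.8% of all genes. The median log2 change of the enzyme genes was 0.38 at 6 °C and 0.39 at 22 °C, beside medians of -0.11 and -0.02 over all tested genes. Between 22 and 6 °C, 7 rose and 6 fell (16.9% and 17.4% of all genes), with a median of -0.0025 beside -0.03 over all genes. As many members rose at 22 °C as at 6 °C against 30 °C. Between the colder temperatures, Idh3a, Ogdh, Suclg2, Me2, Got1, Got2 and Gpd2 rose and Aco1, Idh2, Pcx, Gpt, Glud1 and Oat fell. Leaving out 1 library at a time gave 3 to 7 rises and 3 to 6 falls there. The shares of all genes in those fits were 13.3% to 17.6% and 13.8% to 17.7%. Got1, Got2, Gpd2, Gpt, Glud1 and Oat held whichever library was left out. The 3 comparisons share groups, so these counts are not independent of each other.

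**Figure D1:**
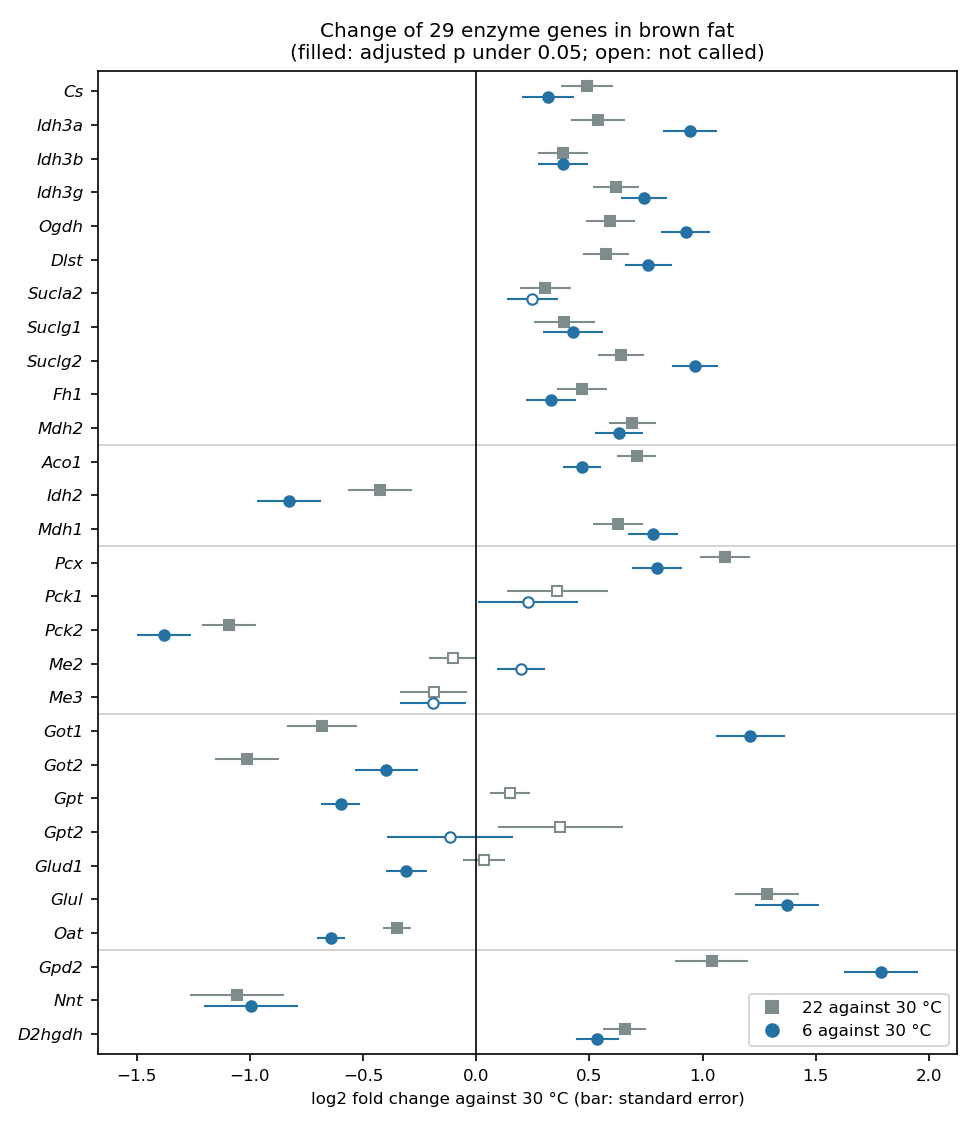
Log2 fold change against 30 °C (x axis; bar, standard error) of the 29 tested enzyme genes (y axis), ordered by role, at 22 °C (squares) and 6 °C (circles); filled symbols have an adjusted p under 0.05. The 11 tested genes of the cycle, at the top, all lie to the right of 0. Pck2, Nnt, Idh2, Got2, Oat and Me3 (not called) lie to the left at both temperatures. Got1, Gpt, Gpt2, Glud1 and Me2 lie on opposite sides at 22 and 6 °C, and of these only Got1 is called at both.

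The genes of the cycle proper moved together. Of its 11 tested members, all 11 rose at 22 °C against 30 °C (log2 0.31 to 0.69, median 0.54), beside 21.8% of all tested genes. At 6 °C 10 rose (0.25 to 0.97 with the gene that did not pass, median 0.63), beside 25.3% of all tested genes. None of the 11 fell in either comparison. The rise at 6 °C was largest for Suclg2, which encodes the GTP-forming beta subunit of succinyl-CoA synthetase, Idh3a, the catalytic subunit of the NAD-linked isocitrate dehydrogenase, and Ogdh, the first enzyme of the alpha-ketoglutarate dehydrogenase complex. Dlst, the second enzyme of that complex, rose by 0.76 ± 0.10 (SE), and Mdh2, the mitochondrial malate dehydrogenase, by 0.63 ± 0.11. At the other end stood Cs, citrate synthase, at 0.32 ± 0.11, Fh1, fumarase, at 0.33 ± 0.11, Idh3b, a regulatory subunit, at 0.38 ± 0.11, and Suclg1, the alpha subunit of succinyl-CoA synthetase, at 0.43 ± 0.13. Idh3g, the other regulatory subunit, rose by 0.74 ± 0.10. The 4 smallest of these rises were not called when libraries were scaled by total counts alone: Cs stood at 0.0055 (adjusted p = 0.956), Fh1 at 0.018 (0.861), Idh3b at 0.072 (0.452) and Suclg1 at 0.11 (0.352). At 22 °C the same scaling lost the calls of Idh3b (0.13, edgeR adjusted p = 0.22), Sucla2 (0.046, 0.664), Suclg1 (0.13, 0.322) and Fh1 (0.21, 0.0535).

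Suclg2 (chr6:95473009-95718800) was measured at 50.2, 42.7, 42.0 and 35.1 CPM at 30 °C in mice 1, 2, A and B. It was at 69.8, 62.1, 71.0 and 61.5 CPM at 22 °C and at 79.8, 76.4, 91.8 and 84.1 CPM at 6 °C in mice 1 to 4. No library of a colder group reached down to a warmer one, so the 3 groups were fully separated. The rise at 6 °C against 30 °C was 1.96-fold (log2 0.97 ± 0.10, edgeR adjusted p = 6.1e-06). Its count may include reads of a processed pseudogene, since 16% of the 50-base windows of its transcripts also occur in Gm15163.

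Idh3a (chr9:54586334-54604661) stood at 1110, 1259, 1214 and 932 CPM at 30 °C, at 1732, 1842, 1327 and 1662 CPM at 22 °C, and at 2041, 2083, 2381 and 2191 CPM at 6 °C. The groups again did not overlap, and the deep library, 22 °C mouse 3, was the lowest of its group. The log2 change was 0.54 ± 0.12 at 22 °C and 0.95 ± 0.12 at 6 °C against 30 °C (edgeR adjusted p = 0.0026 and 2.7e-05). Idh3a was among the 3 cycle genes that rose further between 22 and 6 °C, at 0.41 ± 0.12 (adjusted p = 0.0191), with Suclg2 at 0.33 ± 0.10 and Ogdh at 0.33 ± 0.11. Each of these calls lay near the threshold and could be lost on leaving out 1 library. That of Idh3a was lost without 6 °C mouse 3 (0.36, adjusted p = 0.0574). That of Suclg2 was lost without 22 °C mouse 2 or 4 or 6 °C mouse 3 or 4 (0.28 to 0.32). That of Ogdh was lost without 22 °C mouse 2, 3 or 4 or 6 °C mouse 3 or 4 (0.30 to 0.34). With the skeletal muscle level in the model none of the 3 was called (adjusted p = 0.0697, 0.0693 and 0.0942). The other 8 were not called between these temperatures, with changes from -0.17 (Cs) to 0.19 (Dlst).

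Cs lay just inside the threshold at 6 °C against 30 °C (adjusted p = 0.0296) and Sucla2, the ATP-forming beta subunit of succinyl-CoA synthetase, just outside it (0.0752). Cs was at 1746, 1926, 1824 and 1370 CPM at 30 °C, at 2575, 2629, 2141 and 2301 CPM at 22 °C, and at 2027, 1994, 2324 and 2216 CPM at 6 °C. Sucla2 was at 1725, 1766, 1682 and 1340 CPM at 30 °C, at 1920, 2262, 1728 and 2137 CPM at 22 °C, and at 1816, 1948, 2122 and 1842 CPM at 6 °C. For both genes 30 °C mouse B was the lowest library of all 12, and every 6 °C library lay above every 30 °C library. Sucla2 was called at 22 °C (0.31 ± 0.11, edgeR adjusted p = 0.0406), but not on leaving out 30 °C mouse A or B, 22 °C mouse 1, 2 or 4 or 6 °C mouse 2 or 4 (0.22 to 0.33, adjusted p = 0.0508 to 0.115). The rise of Cs at 6 °C was likewise lost without 30 °C mouse B (0.22, adjusted p = 0.0639) or 6 °C mouse 3 or 4, that of Fh1 without 6 °C mouse 3, and that of Suclg1 at 22 °C without 30 °C mouse B or 22 °C mouse 1, 2 or 4. Without mice A and B, the rises of Cs, Fh1 and Suclg1 at 6 °C were no longer called (0.23, adjusted p = 0.106; 0.21, 0.0942; and 0.32, 0.0881), nor were those of Idh3b, Sucla2 and Suclg1 at 22 °C (0.27, adjusted p = 0.0558; 0.20, 0.203; and 0.27, 0.181). Ogdhl, a paralogue of Ogdh known mainly from brain, was close to absent: it had 0 to 12 counts in each library other than the deep one, where it had 130.

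**Figure D2:**
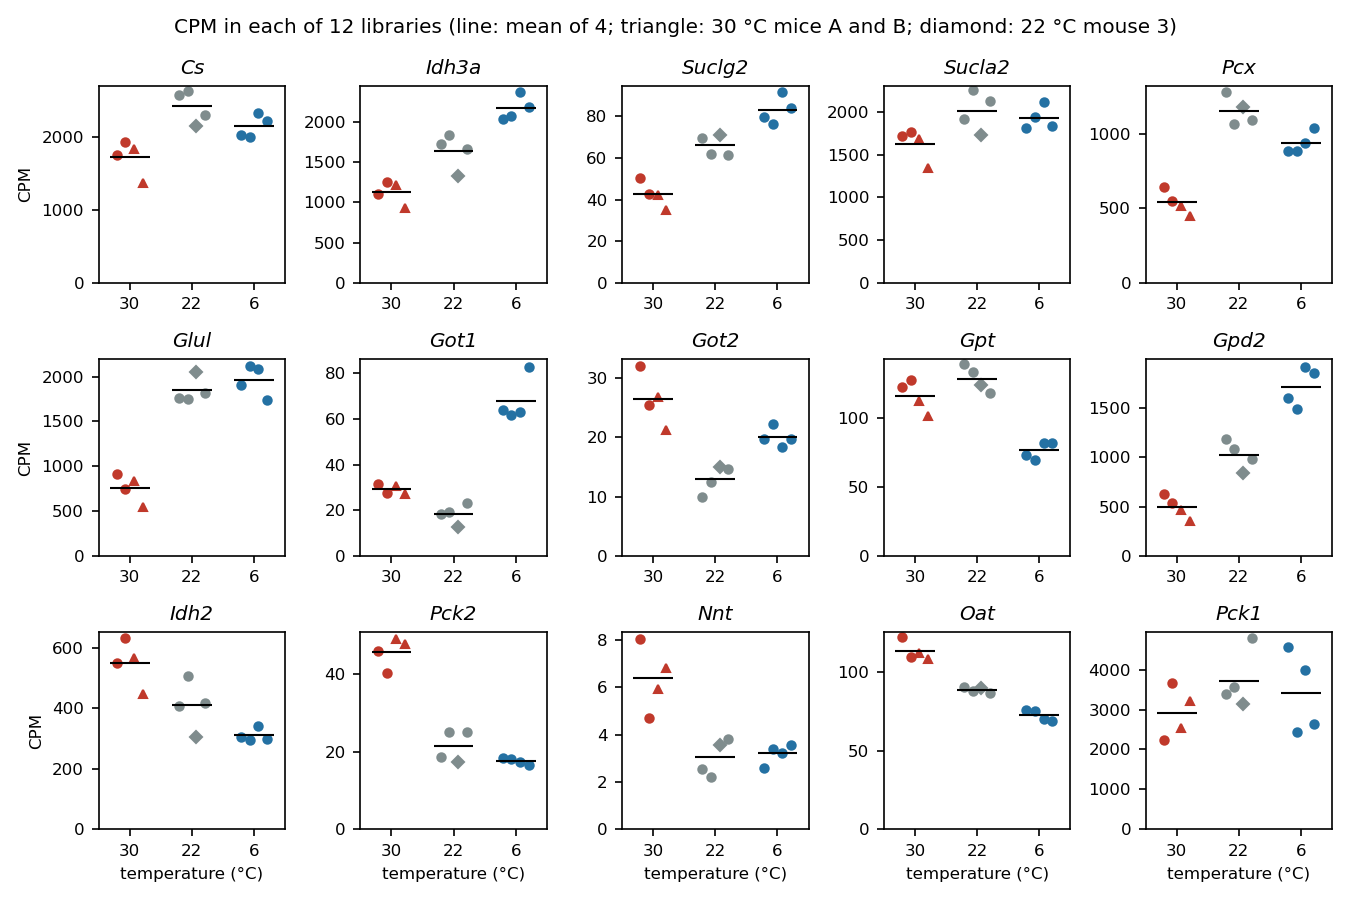
CPM (y axis, from 0) of 15 enzyme genes in each of the 12 libraries, by temperature (x axis, °C); the line is the mean of 4 mice, triangles are the libraries of 30 °C mice A and B, and the diamond is the deep library of 22 °C mouse 3. Idh3a, Suclg2 and Gpd2 step up at each temperature, Glul and Pcx are high in both colder groups, Got1 is high at 6 °C only, and Pck1 overlaps across all 3 groups.

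The stretch of 150 bases before the transcription start is shown for Ogdh and Mdh2, cycle genes that rose, and for Pck1, which was not called, because these are the members whose RefSeq promoter window (250 bases before to 50 after the start, GRCm38.p6) holds the letters of a cAMP response element, TNACGTCA on either strand. The element is the site through which cAMP signalling is known to act on many promoters. All 3 sequences are on the plus strand, 5′ to 3′, with the matching letters in capitals: chr11:6291447-6291596, chr5:135778499-135778648 and chr2:173152923-173153072.
Ogdh: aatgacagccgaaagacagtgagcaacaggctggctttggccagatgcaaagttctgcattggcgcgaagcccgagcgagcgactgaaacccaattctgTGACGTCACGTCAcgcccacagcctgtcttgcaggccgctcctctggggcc
Mdh2: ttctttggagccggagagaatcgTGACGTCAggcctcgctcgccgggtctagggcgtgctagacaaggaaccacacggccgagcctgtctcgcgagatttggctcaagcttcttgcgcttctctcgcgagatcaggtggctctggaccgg
Pck1: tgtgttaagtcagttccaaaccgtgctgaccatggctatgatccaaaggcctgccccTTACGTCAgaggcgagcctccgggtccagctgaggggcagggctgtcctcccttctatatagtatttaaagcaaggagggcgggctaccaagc

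The match starts at -51 in Ogdh, where another at -46 overlaps it, at -127 in Mdh2 and at -93 in Pck1. Positions are counted from the RefSeq start of the window shown. From other RefSeq starts of Ogdh the same match is at -60 or -113. GENCODE starts Mdh2 at 135778480 and Pck1 at 173153048. By that annotation the whole stretch of Mdh2 and the end of that of Pck1 lie within the gene. A promoter window was found for 26 of the 30 members (not for Gpt, Idh3a, Me2 and Nnt). The letters occurred in a window of 3 of these 26 genes, and in 3.36% of all 27025 genes with a window; Ogdh has several overlapping windows, which gives it more chances of a match. The estrogen-related receptor element TNAAGGTCA was in none of the 26 (1.43% of all genes), the NRF1 core CGCATGCG in another window of Ogdh only (2.07%), and the E box CACGTG in Ogdh, Ogdhl and Pcx (8.09%). A match is a description of these letters, and its absence says only that the letters are not in this window.

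Of the 3 isozymes that stand beside the NAD-linked cycle, 2 rose and 1 fell in both comparisons with 30 °C. The shares of all tested genes were 21.8% and 22.8% at 22 °C, and 25.3% and 31.5% at 6 °C. Aco1, the cytosolic aconitase that also serves as an iron-responsive RNA-binding protein, rose by 0.71 ± 0.08 at 22 °C and 0.47 ± 0.08 at 6 °C. Mdh1, the cytosolic malate dehydrogenase of the malate-aspartate shuttle, rose by 0.63 ± 0.11 and 0.78 ± 0.11. Idh2, the mitochondrial NADP-linked isocitrate dehydrogenase, which makes NADPH, went the other way.

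Aco1 was at 203, 201, 195 and 167 CPM at 30 °C, at 328, 282, 343 and 296 CPM at 22 °C, and at 262, 251, 270 and 274 CPM at 6 °C. All 22 °C libraries lay above all 6 °C libraries, which lay above all 30 °C libraries. Idh2 (chr7:80094846-80115392) was at 552, 634, 567 and 447 CPM at 30 °C, at 409, 508, 304 and 417 CPM at 22 °C, and at 306, 294, 340 and 300.0 CPM at 6 °C. The 30 and 6 °C groups did not overlap, while 22 °C mouse 2 reached into the 30 °C range. Idh2 was 1.77-fold lower at 6 °C than at 30 °C (log2 -0.83 ± 0.14, edgeR adjusted p = 0.00028) and lay at -0.43 ± 0.14 at 22 °C (adjusted p = 0.0246). The fall at 22 °C was not called without 30 °C mouse 2 (-0.35, adjusted p = 0.0768), without 30 °C mouse A (-0.41, 0.0525) or without 22 °C mouse 1 (-0.42, 0.0515).

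Among the 5 enzymes of pyruvate, malate and oxaloacetate, 1 rose and 1 fell at both colder temperatures. Pcx, pyruvate carboxylase, which makes oxaloacetate from pyruvate, was the gene that rose. Pck2, the mitochondrial phosphoenolpyruvate carboxykinase, was the gene that fell. Pck1, the cytosolic form, known in fat for glyceroneogenesis, and the mitochondrial malic enzymes Me2 and Me3, which make pyruvate from malate, were not called in either comparison with 30 °C. Over all tested genes, 21.8% rose and 22.8% fell at 22 °C, and 25.3% and 31.5% at 6 °C.

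Pcx (chr19:4510472-4621752) was at 644, 550, 515 and 450 CPM at 30 °C, at 1282, 1070, 1183 and 1097 CPM at 22 °C, and at 889, 885, 941 and 1038 CPM at 6 °C. Its highest group was 22 °C, and no 2 groups overlapped. It rose 2.15-fold at 22 °C (log2 1.10 ± 0.11, edgeR adjusted p = 1.8e-05) and 1.74-fold at 6 °C (0.80 ± 0.11, adjusted p = 5.2e-05) against 30 °C. Pcx fell by 0.30 ± 0.11 from 22 to 6 °C (adjusted p = 0.0462), a call that held without 30 °C mouse 1 or B, 22 °C mouse 2 or 6 °C mouse 4 and was lost on leaving out any other library (-0.25 to -0.33).

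Pck2 (chr14:55540266-55551242) was at 45.8, 40.2, 49.1 and 47.9 CPM at 30 °C, at 18.7, 25.2, 17.4 and 24.9 CPM at 22 °C, and at 18.4, 18.2, 17.3 and 16.4 CPM at 6 °C. Every library of the colder groups lay below every 30 °C library. The gene was 2.13-fold lower at 22 °C (log2 -1.09 ± 0.12) and 2.60-fold lower at 6 °C (-1.38 ± 0.12, edgeR adjusted p = 1.3e-06), the largest fall among the tested members. Pck1 spread widely within each group, from 2237 to 3658 CPM at 30 °C, 3147 to 4805 at 22 °C and 2431 to 4570 at 6 °C. Its change at 6 °C was 0.23 ± 0.22 (adjusted p = 0.393). Me2 stood at 0.20 ± 0.11 (adjusted p = 0.131) and Me3 at -0.19 ± 0.15 (0.284) at 6 °C against 30 °C, and Me2 was called without mice A and B (0.35, adjusted p = 0.0334). Per kilobase of exon, Pck1 was the most abundant of the 30 genes in every group, at 848 ± 188, 1087 ± 215 and 994 ± 304 CPM per kilobase (SD, n = 4), while Pck2 was at 5.86 ± 0.50, 2.76 ± 0.52 and 2.25 ± 0.12.

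The 7 transaminases and enzymes of glutamate held both rises and falls. So did all tested genes, of which 25.3% rose and 31.5% fell at 6 °C against 30 °C, and 21.8% and 22.8% at 22 °C. At 6 °C against 30 °C, Glul and Got1 rose, Got2, Gpt, Glud1 and Oat fell, and Gpt2 was not called (-0.11 ± 0.28, adjusted p = 0.742). At 22 °C, Glul rose, Got1, Got2 and Oat fell, and Gpt (0.15 ± 0.09), Gpt2 (0.37 ± 0.28) and Glud1 (0.03 ± 0.09) were not called.

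Glul, glutamine synthetase, which joins ammonia to glutamate, was at 910, 743, 837 and 542 CPM at 30 °C. It was at 1760, 1756, 2055 and 1818 CPM at 22 °C and at 1912, 2116, 2089 and 1745 CPM at 6 °C. The colder groups overlapped each other and lay wholly above 30 °C. The gene (chr1:153899944-153909723) rose 2.44-fold at 22 °C (log2 1.29 ± 0.14, edgeR adjusted p = 2.9e-05) and 2.59-fold at 6 °C (1.37 ± 0.14, 4.6e-06), with no call between 22 and 6 °C (0.09 ± 0.14, 0.643). Of its 50-base windows, 12.6% also occur in other genes, chiefly the pseudogene Glns-ps1. Glud1, glutamate dehydrogenase, which links glutamate to alpha-ketoglutarate, fell by 0.31 ± 0.09 at 6 °C against 30 °C (adjusted p = 0.0114) and by 0.34 ± 0.09 against 22 °C (0.0119).

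Got1, the cytosolic aspartate transaminase (chr19:43499752-43524605), was the member that was called in opposite directions at 22 and 6 °C against 30 °C. It was at 31.7, 27.7, 30.5 and 27.3 CPM at 30 °C, at 18.4, 19.0, 12.9 and 23.3 CPM at 22 °C, and at 63.8, 61.7, 63.2 and 82.7 CPM at 6 °C. The 22 °C group was wholly below 30 °C and the 6 °C group wholly above it. Got1 fell by 0.68 ± 0.15 from 30 to 22 °C (edgeR adjusted p = 0.0032) and rose 3.71-fold from 22 to 6 °C (log2 1.89 ± 0.16, adjusted p = 9.1e-06), which made 2.32-fold between 30 and 6 °C (1.21 ± 0.15, 3.1e-05).

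Got2, the mitochondrial aspartate transaminase, was at 32.1, 25.4, 26.9 and 21.2 CPM at 30 °C, at 10.0, 12.5, 15.1 and 14.7 CPM at 22 °C, and at 19.7, 22.3, 18.4 and 19.8 CPM at 6 °C. Its lowest group was also 22 °C, and only 6 °C mouse 2 reached into the 30 °C range. It fell by 1.01 ± 0.14 at 22 °C (edgeR adjusted p = 0.00014), and its fall at 6 °C against 30 °C lay just inside the threshold (-0.40 ± 0.14, adjusted p = 0.0269). That call was lost without 30 °C mouse 1 (-0.29, adjusted p = 0.0875) and without 30 °C mouse A or 6 °C mouse 1, 3 or 4. Got2 shares 25.6% of its 50-base windows with other genes (Gm10874 and Got2-ps1, and Gm45760 on the opposite strand), and how reads of these windows were counted is not known.

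Gpt, the cytosolic alanine transaminase (chr15:76695716-76699686), was at 122, 127, 112 and 102 CPM at 30 °C, at 139, 133, 124 and 118 CPM at 22 °C, and at 72.9, 69.4, 81.5 and 82.0 CPM at 6 °C. It was low at 6 °C only, with no overlap with the warmer groups. The fall was 1.52-fold against 30 °C (log2 -0.60 ± 0.09, edgeR adjusted p = 8.3e-05) and 1.68-fold against 22 °C (-0.75 ± 0.09, 7.3e-05). Gpt2, the mitochondrial form, varied most within 22 °C, from 14.9 to 47.5 CPM, and was called when 22 °C mouse 2 was left out (0.59 at 22 °C against 30 °C, adjusted p = 0.0381, and -0.70 at 6 °C against 22 °C, 0.0253).

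Oat, ornithine aminotransferase, which links ornithine to glutamate, was at 123, 109, 112 and 108 CPM at 30 °C, at 90.6, 88.1, 90.1 and 86.6 CPM at 22 °C, and at 76.0, 74.9, 70.1 and 69.0 CPM at 6 °C. The groups were separated at each step and had little spread. Oat (chr7:132557478-132576398) fell by 0.35 ± 0.06 to 22 °C, by a further 0.29 ± 0.06 to 6 °C, and by 0.64 ± 0.06 in all (edgeR adjusted p = 3.0e-06).

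The remaining members handle electrons. Gpd2, the flavin-linked mitochondrial glycerol phosphate dehydrogenase, had the largest rise at 6 °C of the tested members. D2hgdh, a flavin-linked enzyme that oxidises the D form of hydroxyglutarate to alpha-ketoglutarate, rose by 0.66 ± 0.09 at 22 °C and 0.54 ± 0.09 at 6 °C; 17.8% of its 50-base windows also occur in the pseudogenes Gm18666 and Gm7889. Nnt, which makes mitochondrial NADPH from NADH at the expense of the proton gradient, fell at both.

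Gpd2 (chr2:57237635-57370719) was at 629, 536, 471 and 358 CPM at 30 °C, at 1183, 1090, 837 and 989 CPM at 22 °C, and at 1609, 1497, 1920 and 1855 CPM at 6 °C. The groups were separated at each step. It rose 2.06-fold to 22 °C (log2 1.04 ± 0.16, edgeR adjusted p = 0.00026), a further 1.68-fold to 6 °C (0.75 ± 0.16, 0.0035), and 3.45-fold in all (1.79 ± 0.16, 2.0e-06). Gpd1, its cytosolic partner in the shuttle and not a member, rose alongside it, from 3074 ± 443 CPM at 30 °C to 5577 ± 939 at 22 °C and 11290 ± 1349 at 6 °C (SD, n = 4), with log2 changes of 0.86 ± 0.15 and 1.88 ± 0.15 against 30 °C. Per kilobase of exon, Gpd1 was far more abundant than Gpd2, at 1038 against 76.1 CPM per kilobase at 30 °C. Of the exons of Gpd2, 7.44% lie under A930012O16Rik on the opposite strand, a gene with 3.27, 2.65 and 1.82 CPM on average at 30, 22 and 6 °C.

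Nnt (chr13:119335448-119408997) was at 8.03, 4.70, 5.93 and 6.84 CPM at 30 °C, at 2.52, 2.21, 3.57 and 3.83 CPM at 22 °C, and at 2.60, 3.41, 3.22 and 3.57 CPM at 6 °C. Both colder groups lay wholly below 30 °C and overlapped each other. Nnt was 2.08-fold lower at 22 °C (log2 -1.06 ± 0.21, edgeR adjusted p = 0.0012) and 2.00-fold lower at 6 °C (-0.996 ± 0.21, 0.0013). It was, after Ogdhl, the least abundant member per length, at 0.91 ± 0.20, 0.43 ± 0.11 and 0.45 ± 0.06 CPM per kilobase (SD, n = 4). GENCODE holds another gene model named Nnt on the same strand that covers 47.5% of its exons and has no row in the table, and 47% of its 50-base windows are shared with it, so this value is uncertain.

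**Figure D3:**
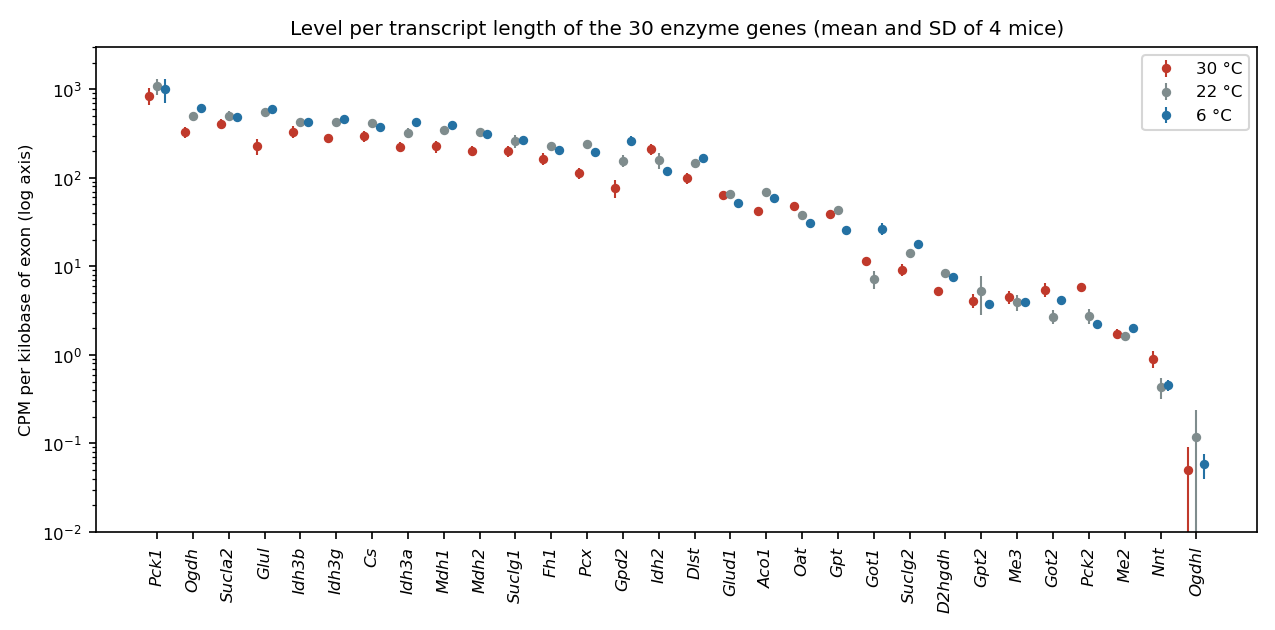
CPM per kilobase of exon (y axis, log scale) of the 30 enzyme genes (x axis) at 30, 22 and 6 °C; points are means of 4 mice and bars are SD, which for Ogdhl run below the axis. Pck1 is the most abundant member in each group, and Nnt and Ogdhl are at the low end.

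Per kilobase of exon the members spanned from 848 (Pck1) to 0.05 (Ogdhl) CPM per kilobase at 30 °C. Next below Pck1 stood Sucla2 (408 ± 49.0), Idh3b (330.1 ± 49.5), Ogdh (327 ± 46.8) and Cs (297 ± 42.0), neighbours whose means lie within their SD of each other from Idh3b on. At 6 °C the order below Pck1 (994 ± 304) was Ogdh (621 ± 41.0), Glul (592 ± 51.9), Sucla2 (485 ± 34.9) and Idh3g (465 ± 26.0). Ogdh and Glul, and likewise Sucla2 and Idh3g, lay within their SD of each other. Glul thus stood above Sucla2 at 6 °C and well below it at 30 °C (228 ± 48.0 against 408 ± 49.0). The ATP-forming Sucla2 remained far above the GTP-forming Suclg2 (9.19 ± 1.33 at 30 °C and 18.0 ± 1.44 at 6 °C) in all groups.

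Whether the step from 22 to 6 °C differed from the step from 30 to 22 °C was tested directly, as the log2 change of the colder step minus that of the warmer step. The value was positive and called in 4 members (14.3% of all genes) and negative and called in 9 (15% of all genes). The 4 positive ones were Got1 (2.57 ± 0.28, edgeR adjusted p = 0.00016), Got2 (1.63 ± 0.25, 0.00091), Nnt (1.12 ± 0.37, 0.0373) and Pck2 (0.80 ± 0.21, 0.0119). In Got1 and Got2 a fall was followed by a rise, and in Nnt and Pck2 a fall by no called change. The 9 negative ones were Pcx (-1.41 ± 0.18, adjusted p = 0.00037), Glul (-1.20 ± 0.23), Aco1 (-0.95 ± 0.14, 0.0008), Gpt (-0.90 ± 0.15), D2hgdh (-0.78 ± 0.16), Mdh2 (-0.75 ± 0.18), Cs (-0.66 ± 0.20), Fh1 (-0.61 ± 0.19) and Idh3g (-0.50 ± 0.17). All of these but Gpt had risen by 22 °C, and none of them rose further. The call of Idh3g was lost on leaving out any library but 30 °C mouse A, 22 °C mouse 3 or 6 °C mouse 3, and those of Cs and Fh1 without 22 °C mouse 1 or 2 (Fh1 also without mouse 4). The call of Nnt was lost in the same way for 7 libraries (0.88 to 1.11), among them 22 °C mouse 2, and that of Pck2 without mice A and B and 22 °C mouse 3 together (0.54, adjusted p = 0.0886).

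Ratios of enzyme pairs within a library do not depend on how libraries are scaled, and 13 pairs were compared over 3 temperature pairs. In an exact permutation test of 4 against 4 mice, two-sided, the smallest possible p is 0.0286; of 39 tests 18 reached it, and none passed after adjustment over the 39 (adjusted p = 0.0619). With limma on the same ratios, chosen after seeing the data, 19 of 39 had an adjusted p under 0.05. Reaching the smallest p means only that the 2 groups did not overlap. Ratios of other gene pairs were not computed, so how often pairs of any genes separate is not known. The 18 and 19 of 39 are therefore no trait of these enzyme pairs.

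The largest difference at 22 °C against 30 °C was in Pck2 over Pck1 (-1.47 ± 0.24), and at 6 °C against 22 °C in Got2 over Got1 (-1.27 ± 0.22). At 6 °C against 30 °C it was in the isocitrate dehydrogenases, with Glul over Glud1 close in size. The count of Idh2 divided by that of Idh3a was 0.50, 0.50, 0.47 and 0.48 at 30 °C, 0.24, 0.28, 0.23 and 0.25 at 22 °C, and 0.15, 0.14, 0.14 and 0.14 at 6 °C. The groups did not overlap, and the spread within each was small beside the distance between them. Per kilobase of exon the NADP-linked Idh2 stood at 0.95 of Idh3a at 30 °C and at 0.28 of it at 6 °C, a log2 difference of -1.77 ± 0.06 (SE; limma adjusted p = 1.6e-09). The regulatory subunit Idh3b also fell behind Idh3a, by 0.56 ± 0.07 at 6 °C against 30 °C and by 0.41 ± 0.07 against 22 °C.

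Glul over Glud1 rose from 3.15, 2.69, 2.94 and 2.48 at 30 °C to 6.41, 6.62, 6.97 and 6.98 at 22 °C and to 8.76, 10.5, 9.03 and 8.21 at 6 °C. All 3 groups were apart (log2 1.27 ± 0.09 at 22 °C and 1.70 ± 0.09 at 6 °C against 30 °C, limma adjusted p = 4.5e-07 and 4.9e-08). Got2 over Got1 was 1.01, 0.92, 0.88 and 0.78 at 30 °C, 0.55, 0.66, 1.17 and 0.63 at 22 °C, and 0.31, 0.36, 0.29 and 0.24 at 6 °C. The 6 °C libraries lay below all others (-1.59 ± 0.22 against 30 °C, limma adjusted p = 0.00013), whereas at 22 °C the deep library lay above all 30 °C libraries and the other 3 below them. Pck2 over Pck1 fell by 1.47 ± 0.24 at 22 °C and 1.58 ± 0.24 at 6 °C on the log2 scale. Suclg2 over Sucla2 rose by 0.72 ± 0.12 at 6 °C. Pcx over Cs, the pair of enzymes that make and use oxaloacetate, rose by 0.61 ± 0.11 at 22 °C and 0.48 ± 0.11 at 6 °C. For Gpd2 over Gpd1 the log2 difference at 6 °C against 30 °C was -0.07 ± 0.11 (limma adjusted p = 0.628), and for Mdh2 over Mdh1 it was -0.15 ± 0.08 (0.151).

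**Figure D4:**
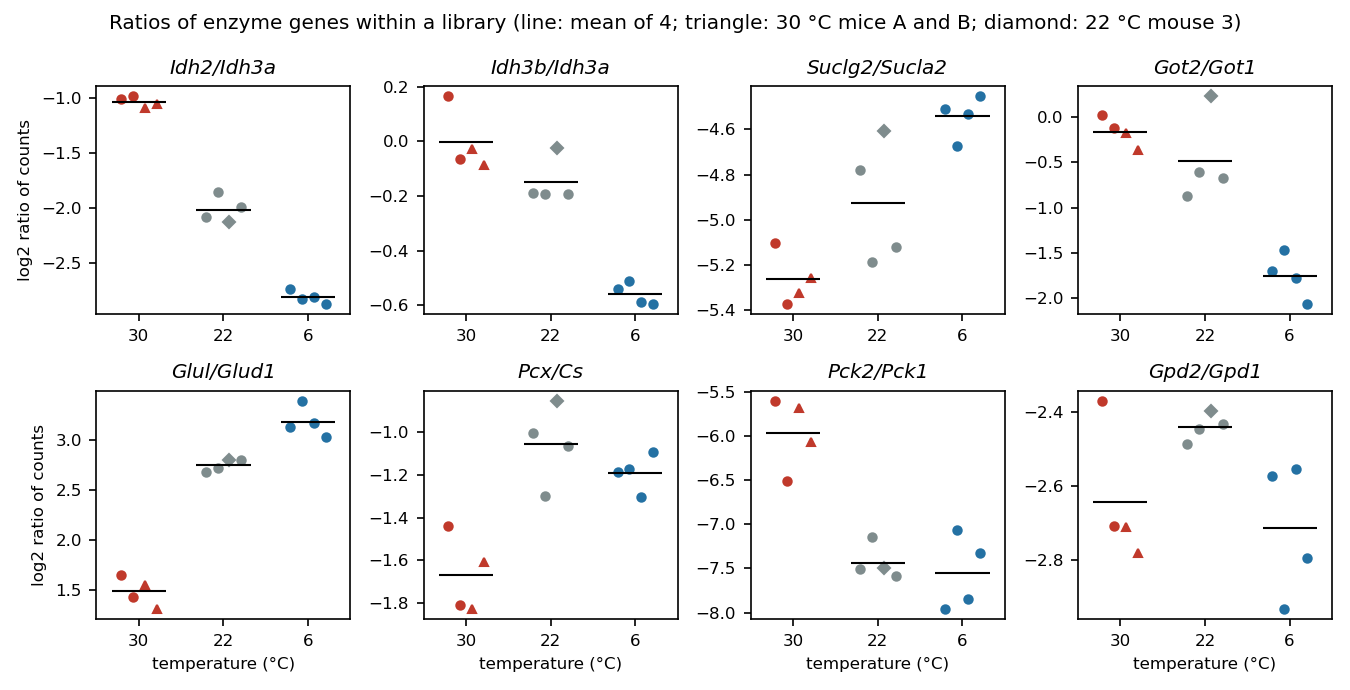
Log2 ratio of the counts of enzyme pairs (y axis) in each of the 12 libraries, by temperature (x axis, °C); lines are means of 4 mice, triangles are 30 °C mice A and B and the diamond is 22 °C mouse 3. Idh2/Idh3a and Glul/Glud1 separate at each temperature, and Gpd2/Gpd1 at 6 and 30 °C overlap.

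Genes of neighbouring steps are given for comparison. Against 30 °C, 21.8% of all tested genes rose and 22.8% fell at 22 °C, and 25.3% and 31.5% at 6 °C. From 22 to 6 °C the shares were 16.9% and 17.4%. Of 10 cycle genes outside the list, 10 rose at 22 °C and 7 at 6 °C against 30 °C (median 0.56 at 6 °C), with no fall; among them were Dld, the dihydrolipoamide dehydrogenase shared by the alpha-keto acid dehydrogenases, at 1.12 ± 0.11, and Sdha, the flavoprotein of succinate dehydrogenase, at 0.95 ± 0.10. Of 13 genes of pyruvate entry, 11 rose and 1 fell at 6 °C (median 1.34), led by the mitochondrial pyruvate carrier subunits Mpc2 (2.00 ± 0.11) and Mpc1 (2.03 ± 0.12). Of 13 shuttle carriers and partners, 7 rose and 2 fell (median 1.06), among them the ornithine carrier Slc25a15 at 1.06 ± 0.08. The largest rises of this list were those of Acly (3.61 ± 0.48) and Me1 (3.45 ± 0.46). The carriers Slc25a12 (-1.05 ± 0.39) and Slc25a13 (-0.80 ± 0.32) fell, and Slc25a11 (0.10 ± 0.09) was not called. Of 17 tested anaplerotic and glutamate family enzymes, 8 rose and 4 fell (median 0.25), with Pcca, a subunit of propionyl-CoA carboxylase, at 1.51 ± 0.12 and Mcee, methylmalonyl-CoA epimerase, at 1.22 ± 0.12. Of 23 nuclear-encoded respiratory subunits, 23 rose at 22 °C and 19 at 6 °C (median 0.46), with Uqcrfs1 at 1.01 ± 0.11 and Cycs at 1.02 ± 0.11; between 22 and 6 °C, 1 rose and 8 fell. The medians of the respiratory subunits, 0.60 at 22 °C and 0.46 at 6 °C against 30 °C, stand beside 0.54 and 0.63 for the cycle members.

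Libraries within a group did not spread evenly over the members. Mouse B was the lowest of the 30 °C group in 24 of 29 members, beside 28.7% of all genes. The lowest of its group was 22 °C mouse 3 in 16, beside 27.2%, and 6 °C mouse 2 in 12, beside 21.9%. The highest was 30 °C mouse 1 in 16 (28.6%), 6 °C mouse 3 in 14 (26.8%) and 22 °C mouse 2 in 12 (26.4%). Each count that follows stands beside the share of all genes called in the same fit. Without mice A and B, 15 members rose and 7 fell at 6 °C (21.2% and 22.1% of all genes), and 14 rose and 6 fell at 22 °C (14.2% and 15.2%). Leaving out 22 °C mouse 3 as well gave 16 and 7 (22.2% and 23%), and 17 and 6 (15.2% and 15%). With the skeletal muscle level in the model, 14 rose and 6 fell at 6 °C (22.1% and 26.6%; Cs, Fh1, Suclg1 and Got2 lost their calls), and 16 and 6 at 22 °C (21.3% and 22.6%).

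With the macrophage level in the model, 14 rose and 6 fell at 6 °C (16.2% and 16.8% of all genes). Cs (0.10, adjusted p = 0.625), Idh3b (0.17, 0.39), Suclg1 (0.17, 0.465), Fh1 (0.073, 0.7) and Got2 (-0.55, 0.0506) lost their calls there, and Me2 (0.43, 0.0358) gained one. At 22 °C against 30 °C edgeR then called none of the 29 (3 higher and 6 lower at an unadjusted p under 0.05), and 40 of all 14870 genes were called higher and 46 lower. The macrophage level overlapped in no pair of temperature groups, so it and the temperature cannot be told apart in any of the comparisons. The same holds for the summed fibroblast and brown adipocyte markers. Summed T cell markers were at 9 to 13.7 CPM at 30 °C, 2.09 to 3.35 at 22 °C and 1.63 to 3.11 at 6 °C. Summed endothelial markers were at 1240 to 1460, 817 to 956 and 890 to 982 CPM, so both lists also set 30 °C apart. The part of these 4 lists in the results was not tested.

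Scaling by total counts in place of TMM moved the median of all genes at 6 °C from -0.11 to -0.43 and that of the members from 0.38 to 0.07. It gave 12 members higher and 8 lower at 6 °C, where 13% of all genes were higher and 53% lower, and 13 and 9 at 22 °C (9.54% and 41.9%).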

How the data were processed

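RNA from the interscapular brown fat of 12 mice, 4 at each of 3 temperatures, was sequenced. The authors deposited raw read counts per gene, not normalised, in 1 table. Per the submitters' processing notes, GRCm38 and mm10 were the builds and FastQC 0.10.1, STAR 2.4.2a and edgeR 3.14.0 were among the tools. How reads were counted, by which annotation and with which strand setting, was not given in the sources used here. Of the columns, 10 were matched to a numbered mouse and 2 to the 30 °C group only.

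Here edgeR 4.0.16 (R 4.3.3) was used: filterByExpr by temperature kept 14870 genes, TMM factors were 0.87 to 1.23, and a model of temperature over all libraries was fitted by glmQLFit (robust) and tested two-sided by glmQLFTest, with Benjamini-Hochberg adjustment at 0.05. CPM use TMM library sizes, and levels per kilobase use exon lengths of GENCODE M21 (GRCm38), which matched 96.6% of identifiers. Pair ratios are log2 of counts plus 0.5. Adjusted p-values weigh differences against the spread between these mice. On data simulated for 6 °C against 30 °C over 14870 genes, 66, 67 and 67 genes were changed by log2 0.585, 1 and 2 in size. The test recovered 39.4%, 65.7% and 94% of them, with 10 false calls among the unchanged genes. Far fewer genes changed there than were called in the data (25.3% higher and 31.5% lower), which makes the adjustment stricter. These shares therefore do not give the power of the tests reported here. No library was a copy of another (chi-square over its degrees of freedom of 20.9 or more within groups).

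The members, lists and tests were chosen with earlier results of these data known. Every member is named; values in every library are given for the 5 largest rises and falls at 6 °C, the 3 largest changes of the other pairs, the 3 smallest p of the difference of the steps and the genes next to the threshold. Of related lists, the 2 genes with the smallest p and Gpd1 are named. Acly, Me1, Slc25a11, Slc25a12 and Slc25a13 were named in addition, after seeing the data. Alternatives were other scalings and filters, DESeq2 1.42.0, limma 3.58.1 (voom), a replicate block, leaving out libraries, stricter thresholds and, added after seeing the data, cell type covariates, limma on the ratios, and leaving out 3 libraries together.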

Additional observations from a re-analysis of the deposited data

Results flagged for a closer look

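Of 90 groups of 4 mice (30 members at 3 temperatures), 3 held a library whose gap to the nearest of the others was above Dixon's limit for a single outlying value, taken as a share of the group's range. Chance gives about 1 in 20. Idh3b was at 877.9 CPM in 30 °C mouse B, where the other 3 lay between 1192 and 1245 CPM. Got1 was at 82.68 CPM in 6 °C mouse 4, where the next was 63.82 and the lowest 61.68 CPM. Ogdhl was at 1.533 CPM in 22 °C mouse 3, the deep library, where the others had at most 0.22 CPM. Got1 stayed called in each comparison whichever library was left out.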

How the results depend on the processing

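Counts of members under other settings follow, among them those that moved by more than 1.5 times. Those of total counts for the steps, of DESeq2 and of voom did not move that far. Shares of all tested genes called in the same fit are in brackets. From 22 to 6 °C the main fit gave 7 higher and 6 lower (16.9% and 17.4%). RLE scaling gave 7 and 3 there (18.5% and 15.6%). An adjusted p under 0.01 gave 3 and 2 (9.48% and 9.37%). A change of at least 1.5-fold gave 3 and 1 (8.23% and 8.98%). The muscle level as a covariate gave 3 and 3 (12.8% and 13.2%), and the macrophage level 7 and 2 (10.2% and 9.7%). At least 1.5-fold left 11 higher at 6 °C (12.9%) and 10 at 22 °C (8.44%) against 30 °C. For the difference of the steps, the main fit gave 4 positive (14.3%). An adjusted p under 0.01 left 2 of them (7.63%), as did leaving out mice A and B and 22 °C mouse 3 (10.6%). Total counts gave 5 positive and 7 negative (20.2% and 8.57%). The macrophage level left 0 and 0 at 22 °C (0.269% and 0.309%). For the steps it left 0 and 0 (0.074% and 0.0269%), with 3 and 2 at an unadjusted p under 0.05. It changed the sign of Idh3b (-0.011), Sucla2 (-0.071), Suclg1 (-0.075) and Fh1 (-0.0016) at 22 °C. The sign of Fh1 for the steps changed too (0.076), and none of these values was called there. Total counts turned Glud1 at 22 °C to -0.22 (adjusted p = 0.0287). Leaving out 1 library gave 15 to 18 higher and 6 to 7 lower at 6 °C (22.9% to 25.8% and 27.5% to 31.5%). At 22 °C it gave 15 to 17 and 5 to 6 (17.5% to 21.6% and 19.1% to 22.6%). Between 22 and 6 °C it gave 3 to 7 and 3 to 6 (13.3% to 17.6% and 13.8% to 17.7%). For the steps it gave 3 to 4 and 6 to 9 (11% to 15.2% and 10.9% to 16.1%). The pair ratios had 19 calls by limma and 0 by the exact test. DESeq2 gave 18 and 7 at 6 °C (28.2% and 28.7%) and 17 and 6 at 22 °C (24% and 21.9%). Voom gave 17 and 7 at 6 °C (25.4% and 31%) and 17 and 6 at 22 °C (22% and 23.5%). Over all settings, 2874 single values kept their side of the threshold (a change of sign where neither fit called is counted here), 203 lost and 20 gained a call with the same sign, and the 6 that changed sign are those above.

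With the replicate block (10 matched libraries), 13 rose and 7 fell at 6 °C (18.5% and 18.9% of all genes). The counts were 11 and 5 at 22 °C (10.7% and 10.7%) and 7 and 4 from 22 to 6 °C (17% and 14.8%). For the steps they were 2 and 6 (8.42% and 7.84%). Numbers only name the mice: correlations of same-numbered libraries ranged from -0.15 to 0.23. Depth limits Ogdhl, which the filter on low counts left out: it had 0 to 12 counts outside the deep library (130 there), and its log2 ratio to Ogdh at 6 °C against 30 °C had an SE of 1.05 by limma.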
